A study of Mus musculus with 4 samples.

Results

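The genes described here encode the protein components of the cytosolic ribosome. They were taken by symbol (Rpl or Rps followed by a number, and Rpsa, Rplp0 and Rplp2) from the probe sets that the array annotation assigns to 1 gene, and each gene is represented by its brightest probe set over the 4 arrays. This gave 46 of the 18193 genes on the array, 22 of the small and 24 of the large ribosomal subunit. Ribosomal protein genes whose probe sets list several symbols were not members, and 28 such symbols were found in the annotation. The study set mouse fetal liver progenitor cells transformed by an oncogene against non-transformed cells, and measured RNA on 4 arrays, 1 for each culture. Of the transformed cultures, the labels name 1 as H-RasV12 (a mutant H-Ras that stays in its active, GTP-bound state), 1 as myr-Akt (the kinase AKT1 carried to the membrane by an added myristoyl group) and 1 as c-Myc (a growth-promoting transcription factor). The fourth culture was non-transformed, and all 4, controls included, lacked p53. The design text speaks of 3 oncogenic factors without saying whether a culture received more than 1, whereas each label names 1. All cultures grew in medium with 10% fetal bovine serum, dexamethasone, insulin supplement, 20 ng/ml EGF and 50 ng/ml HGF. The sources used here do not give the vector, the promoter or the number of clones behind a culture.

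Ribosomal proteins coat and fold the ribosomal RNAs, and a cell needs them in nearly equal numbers. Their mRNAs are among the most abundant of dividing cells, and most begin with a C followed by a run of pyrimidines, the terminal oligopyrimidine (TOP) motif, through which the kinase complex mTORC1 and the RNA-binding protein LARP1 set how well they are translated. Ras and Akt act upstream of mTORC1, and Myc is known to raise the transcription of ribosome genes. In fetal liver, growth of the organ rests on rapid division of progenitors with a high output of ribosomes.

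Start sites of members are shown first because the TOP motif is the feature this family is known for. Windows in the RefSeq promoter table (mouse build GRCm38.p6) were found for 40 of the 46 members. Each line gives 15 bases on either side of an annotated transcript start, with capitals marking the first run of C and T that opens with C and has at least 5 pyrimidines after it. The members are the brightest (Rpl38), the one with the widest range among the bright genes (Rps27l), those with the largest differences or disagreeing probe sets (Rpl14, Rpl12, Rps10), the target of the S6 kinases (Rps6), a long run (Rpl35), and 2 that lack a run (Rplp0, Rps4x).
Rpl38, chr11:114668565-114668594, plus strand: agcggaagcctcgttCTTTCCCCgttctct
Rps27l, chr9:66946071-66946100, plus strand: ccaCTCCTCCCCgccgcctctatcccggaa
Rpl14, chr9:120571502-120571531, plus strand: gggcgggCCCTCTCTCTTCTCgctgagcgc
Rpl12, chr2:32961697-32961726, plus strand: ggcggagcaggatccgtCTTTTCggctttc
Rps10, chr17:27635230-27635259, minus strand: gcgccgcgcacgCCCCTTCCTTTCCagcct
Rps6, chr4:86857353-86857382, minus strand: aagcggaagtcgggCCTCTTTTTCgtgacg
Rpl35, chr2:39005117-39005146, minus strand: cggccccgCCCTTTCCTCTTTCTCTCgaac
Rplp0, chr5:115559452-115559481, plus strand: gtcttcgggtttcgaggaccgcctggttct
Rps4x, chrX:102189377-102189406, minus strand: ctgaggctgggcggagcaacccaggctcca

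A pyrimidine run of this kind was found in at least 1 start window of 24 of the 40 members (60.0%), against 25.5% of all 27025 genes in the RefSeq promoter table. A counted run may lie anywhere in the window, also wholly before the annotated start, as in Rps27l, so it need not open the mRNA. Other motifs were searched on both strands of a window from 250 bases before to 50 bases after the start. The heptamer CCGGAAG, the core bound by ETS-family factors such as GABP, was present in 20 of the 40 members (50.0%), against 9.93% of all genes. The E-box CACGTG, to which Myc binds with its partner Max, was present in 4 of 40 (10.0%), against 8.09% of all genes, and TATAAA in 5 of 40 (12.5%), against 15.7%. Matches describe letters in these windows and show no binding. The 250 bases before the start are printed for Rpl14, which holds the E-box (CACGTG in capitals), at chr9:120571267-120571516 on the plus strand, and for Rps6, which holds the ETS core (CCGGAAG in capitals), at chr4:86857368-86857617 on the minus strand.
Rpl14 upstream: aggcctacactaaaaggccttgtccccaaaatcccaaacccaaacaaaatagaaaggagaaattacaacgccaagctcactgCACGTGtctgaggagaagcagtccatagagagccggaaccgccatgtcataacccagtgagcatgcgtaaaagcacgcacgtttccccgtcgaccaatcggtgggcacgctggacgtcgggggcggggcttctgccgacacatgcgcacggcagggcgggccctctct
Rps6 upstream: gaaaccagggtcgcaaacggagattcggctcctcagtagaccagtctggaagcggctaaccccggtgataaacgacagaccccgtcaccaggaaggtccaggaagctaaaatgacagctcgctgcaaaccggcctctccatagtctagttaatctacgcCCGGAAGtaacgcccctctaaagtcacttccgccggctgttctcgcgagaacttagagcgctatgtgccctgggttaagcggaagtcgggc

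Signals are MAS5 intensities scaled so that the trimmed mean of every array is the same, and a signal under 100.0006, the floor, was treated as not measured. On this scale a difference shared by all mRNAs of a culture cannot appear, and in bulk RNA fewer cells of a type and less RNA per cell cannot be told apart. Genes above the floor numbered 9927 (H-RasV12), 9512 (myr-Akt) and 9492 (c-Myc) in the transformed cultures, against 10216 on the non-transformed array. The highest signal was 39155, 35553 and 32413 on those 3 arrays, against 39666 on the non-transformed array. Myc itself had a signal of 1747 in H-RasV12 cells, 639.7 in myr-Akt cells and 420.6 under the c-Myc label, against 2285 on the non-transformed array. The level measured for Myc thus went against the c-Myc label, and the sources do not say whether its probe set binds the introduced sequence. Of 12 liver progenitor and epithelial markers, 11, 6 and 5 were above the floor on the 3 transformed arrays, against 9 on the non-transformed array, and their summed signal was 23082, 5128 and 9875, against 11205. Afp and Alb, which define the hepatic lineage, were above the floor on the H-RasV12 array alone (568.3 and 167.6). Krt8, Krt18, Krt19, Sox9, Hnf4a and Cdh1 were also highest in H-RasV12 cells. Dlk1 (262.4, 145.1 and 1898, against 116.7) and Met (2321, 2344 and 4010, against 2218) were highest in c-Myc-labelled cells. Epcam was highest in myr-Akt cells (74.9, 178.6 and 84.0, against 112.1), and Krt7 in non-transformed cells (506.9, 445.3 and 1566, against 1621). Of 6 mesothelial and stellate markers, 6, 4 and 3 were above the floor in the transformed cultures, against 6 in non-transformed cells, and their summed signal was 6821, 17035 and 15464, against 28482. Most of that sum in myr-Akt and c-Myc-labelled cells was Upk3b (1299, 12838 and 11557, against 15167), whereas Msln, Des, Pdgfrb and Lhx2 were higher in H-RasV12 cells than in those 2 cultures. Wt1 (1529, 3771 and 3438, against 3419) was lowest in H-RasV12 cells, as was Upk3b, and Lhx2 there was near the floor (102.1). The summed signal of 4 mesenchymal markers was 40579, 45340 and 38579, against 68713. Dcn (172.2, 9524 and 7765, against 10469) and Col3a1 were lowest in H-RasV12 cells. Vim was highest there, and Col1a1 was lowest in c-Myc-labelled cells. Blood markers (0 of 2) and endothelial markers (0 of 3) were below the floor on every array. The part of these cell-type differences in the ribosomal protein values was not tested.

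Most ribosomal protein genes lay at the top of the array's signal range in all 4 cultures. Among the 20 genes with the highest mean signal, 10 were members, and 33 of the 100 highest were. Signals of different probe sets are not mRNA amounts, so these ranks place the measurements in the array's range and order no gene above another. Of the 46 members, 34 had a mean signal of at least 10000 (called bright below), 9 lay between the floor and that limit (dim), and 3 were below the floor on all 4 arrays. The limit was chosen after the signals had been seen, at the gap between Rpl11, with a mean of 14631, and Rps25, with a mean of 3877. The brightest probe set was that of Rpl38, whose loss in mice disturbs the translation of Hox mRNAs, and its signal was 35444, 33894 and 31752 in H-RasV12, myr-Akt and c-Myc-labelled cells, against 33368 in non-transformed cells. These values differ by a factor of 1.12 between the highest and the lowest array.

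**Figure D1:**
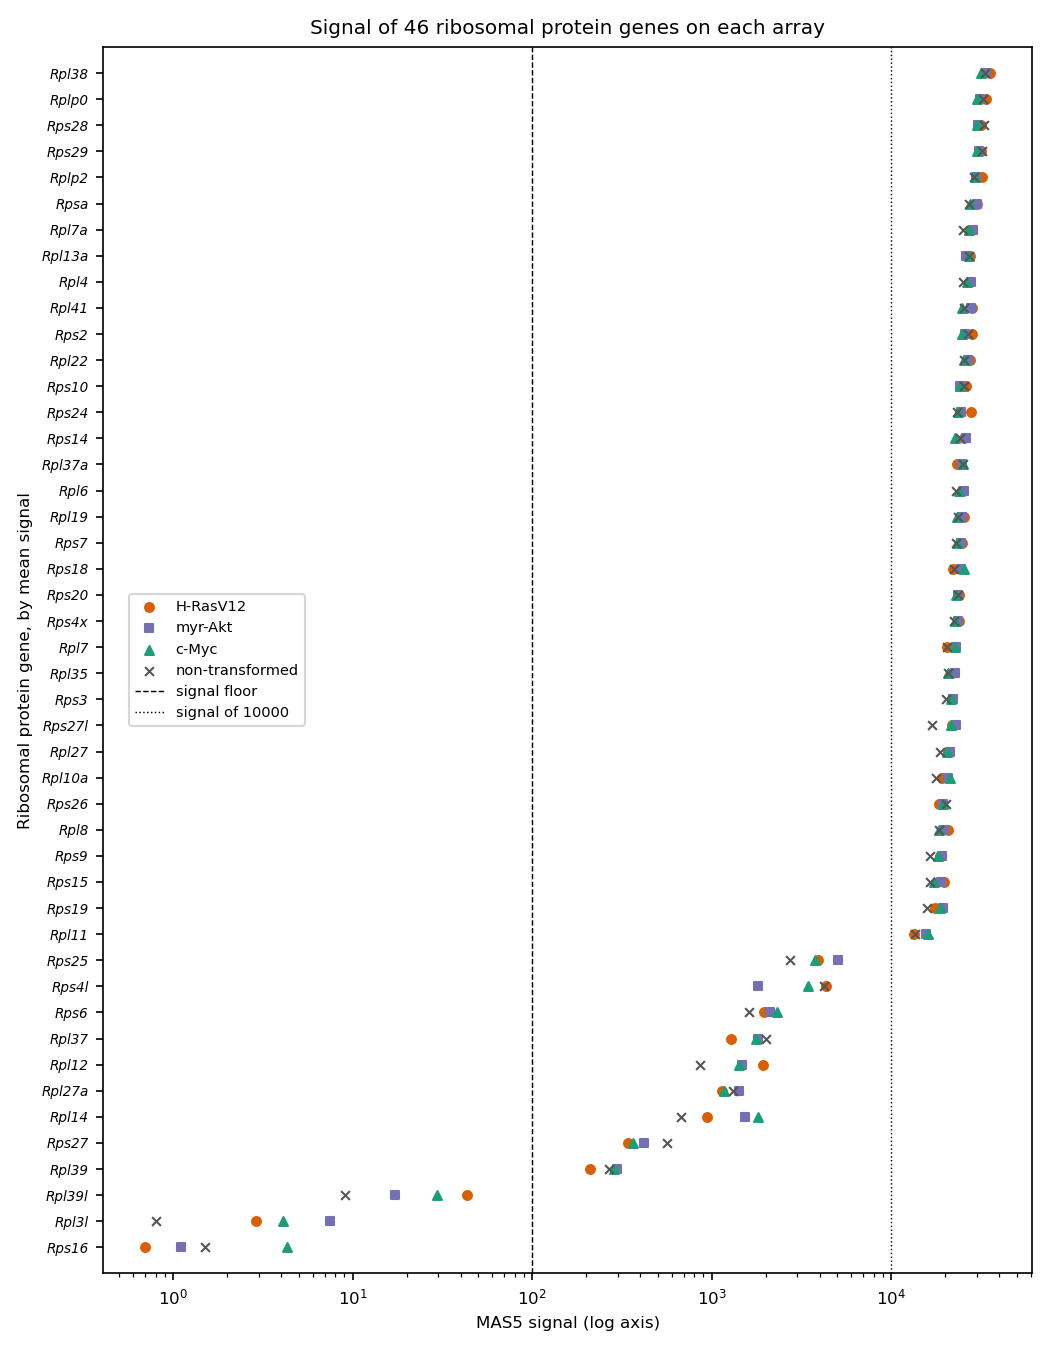
MAS5 signal (log axis) of each of the 46 ribosomal protein genes, 1 symbol per array, with genes in order of mean signal. The 34 genes right of the dotted line at 10000 show 4 nearly coincident symbols, and the 9 genes between the floor (dashed line) and 10000 show wider gaps between arrays.

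The summed signal of the members was 4.29%, 4.29% and 4.19% of the summed signal of all genes in H-RasV12, myr-Akt and c-Myc-labelled cells, against 4.03% in non-transformed cells. The share was thus 1.06, 1.07 and 1.04 times that of non-transformed cells, and it was lowest in non-transformed cells under all 7 alternatives that give it. Scaling to the median of genes above the floor multiplies each array as a whole, so that alternative could not change the share. The median signal of the 34 bright members was 24974, 24604 and 23423 in the transformed cultures, against 23453 in non-transformed cells. Over these 34 genes, the ratio of the highest to the lowest array had a median of 1.12 and reached at most 1.36. Of the 34, 16 were highest in H-RasV12 cells, 11 in myr-Akt cells, 4 in c-Myc-labelled cells and 3 in non-transformed cells, whereas 19 were lowest in non-transformed cells. These counts were not made over other genes, so they are not read as particular to the members. By any amount, 28, 26 and 23 of the 34 were higher in the transformed cultures than in non-transformed cells. So were 187, 167 and 145 of the 281 other genes with a mean signal of at least 10000, and 5363, 4985 and 5100 of all 10679 genes measured. Each group holds 1 array, so none of these differences can be set against a spread between cultures, and no test was possible.

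The first comparison asks how H-RasV12 cells differ from non-transformed cells. Across the 43 members measured, the median log2 difference was 0.10, with the middle of the distribution between 0.01 and 0.15, while over all 10679 genes measured the median was 0.00 and the quartiles were -0.30 and 0.29. One member, Rpl12, was at least 1.5-fold higher (1 of 43, or 2.33%, against 8.87% of all genes), and it was also the only one at least 2-fold higher (against 2.08% of all genes). Rps27 and Rpl37 were at least 1.5-fold lower (2 of 43, or 4.65%, against 13.7% of all genes), and 0 of 43 were 2-fold lower (against 6.27%). All 3 genes past 1.5-fold were dim.

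In myr-Akt cells, the median log2 difference of the 43 members from non-transformed cells was 0.11, against -0.02 over all genes, whose quartiles were -0.51 and 0.40. Rpl14, Rps25 and Rpl12 were at least 1.5-fold higher (3 of 43, or 6.98%, against 16.3% of all genes), and Rpl14 was 2-fold higher (1 of 43, against 4.90%). Rps4l was the 1 member at least 1.5-fold lower (2.33%, against 22.5% of all genes), and it was also 2-fold lower (against 12.7%). Again all 4 were dim.

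In c-Myc-labelled cells, the median difference from non-transformed cells was 0.01 over the 43 members, against 0.00 over all genes, whose quartiles were -0.45 and 0.38. Rpl14 and Rpl12 were at least 1.5-fold higher (2 of 43, or 4.65%, against 15.3% of all genes), and Rpl14 was 2-fold higher (1 of 43, against 4.42%). Rps27 was at least 1.5-fold lower (1 of 43, against 20.4% of all genes), and 0 of 43 were 2-fold lower (against 11.3%). For the 19 members whose next brightest probe set was measured, it differed in the same direction as the first in 10 (H-RasV12), 14 (myr-Akt) and 14 (c-Myc) of them. The 3 comparisons share the non-transformed array, so a gene that was low on that array is higher in all 3.

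None of the 34 bright members was 1.5-fold different in any of these comparisons. Their log2 differences lay between -0.13 and 0.36 in H-RasV12 cells, -0.11 and 0.45 in myr-Akt cells, and -0.14 and 0.35 in c-Myc-labelled cells, with medians of 0.10, 0.10 and 0.01. The 281 other genes with a mean signal of at least 10000 had nearly the same medians, 0.10, 0.08 and 0.02, but 70 of them were 1.5-fold different in at least 1 comparison. The 281 were not matched in brightness to the members, of which 33 were among the 100 brightest genes. The part of brightness in this contrast was not tested. After cyclic loess normalization, the medians over the 43 members were 0.00, -0.02 and -0.04, against 0.00, -0.06 and -0.06 over all genes measured.

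Differences among the bright genes were small in each structural group. The stalk, which recruits elongation factors, is represented by its base Rplp0 and by Rplp2. Rplp0 had signals of 33719, 31345 and 29944 in H-RasV12, myr-Akt and c-Myc-labelled cells, against 32363 in non-transformed cells, and Rplp2 had 32059, 29791 and 29269, against 28998. Rplp0 was among the 4 lowest bright members in both the myr-Akt and the c-Myc-labelled comparison (log2 differences -0.05 and -0.11). At the site where mRNA enters and is decoded, Rps15 had 19677, 19036 and 17324 in the transformed cultures, against 16427 in non-transformed cells (0.26, 0.21 and 0.08), though its other probe set gave -0.11, 0.01 and 0.08, while Rps2 (0.08, -0.04 and -0.10) and Rps3 (0.13, 0.13 and 0.11) differed less. At the mRNA exit, Rps28 had 31858, 30570 and 30094, against 33073 in non-transformed cells, and Rps26 had 18371, 19538 and 19389, against 20170. Rps14, at the same site, had 25581, 26002 and 22760, against 24158 (0.08, 0.11 and -0.09). Rps28, Rps26 and Rps29 were the 3 bright members that were lower than in non-transformed cells on all 3 transformed arrays, and 19 of the 34 were higher on all 3. For Rps28 and Rps29 this order held for the brightest probe set only, since the next probe set of each was higher in H-RasV12 and myr-Akt cells (0.12 and 0.11 for Rps28, 0.11 and 0.09 for Rps29). The counts of 3 and 19 of the 34 were not made over other genes, and all 3 comparisons share the non-transformed array. Both counts are thus not read as particular to the members. Along the exit tunnel of the large subunit, the bright Rpl4 (0.11, 0.16 and 0.09), Rpl19 (0.10, 0.06 and -0.02) and Rpl35 (0.07, 0.14 and 0.01) differed by at most 0.16 in size. The dim Rpl39, at the same tunnel, had 208.7, 297.2 and 287.0, against 267.2 in non-transformed cells (-0.36, 0.15 and 0.10). It was among the 4 lowest members in H-RasV12 cells. The 5 brightest members, Rpl38, Rplp0, Rps28, Rps29 and Rplp2, were lower on the c-Myc-labelled array than on the H-RasV12 array, as was the highest signal of that array, and the part of the array's upper range in this order was not tested.

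Rpl11, which with Rpl5 binds the ubiquitin ligase Mdm2 when ribosome assembly is disturbed, had a signal of 13327, 15631 and 16000 in H-RasV12, myr-Akt and c-Myc-labelled cells, against 13566 in non-transformed cells. It was higher in myr-Akt (log2 difference 0.20) and c-Myc-labelled cells (0.24) and near the non-transformed level in H-RasV12 cells (-0.03). Rps19, the gene most often mutated in the inherited anaemia Diamond-Blackfan anaemia, had 17648, 19460 and 18721, against 15912 in non-transformed cells (0.15, 0.29 and 0.23). Rps24, another gene of that disease, had 27848, 24658 and 23482, against 23398, so that it stood apart in H-RasV12 cells alone (0.25, against 0.08 and 0.01). Its next probe set, however, was lower in H-RasV12 cells (17054, against 18363 in non-transformed cells), opposite to the first. Of 13 listed Diamond-Blackfan genes, 8 were measured, with medians of 0.02, 0.01 and -0.03 and none past 1.5-fold. Over all genes, 8.87%, 16.3% and 15.3% were 1.5-fold higher and 13.7%, 22.5% and 20.4% were 1.5-fold lower. Among proteins tied to the translation of particular mRNAs, Rpl10a was higher in all 3 transformed cultures (19151, 20667 and 21295, against 17838 in non-transformed cells). Rpl13a had 27450, 26257 and 27266, against 27065, by its brightest probe set (0.02, -0.04 and 0.01). Its next probe set had 18638, 22042 and 20539, against 16724 (0.16, 0.40 and 0.30).

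Rps27l had the widest range of the bright members. It is a close relative of Rps27 and in human cells is induced by p53, which these cultures lack. Its signal was 21718, 22992 and 21499 in H-RasV12, myr-Akt and c-Myc-labelled cells, against 16888 in non-transformed cells, where it was lowest. The log2 differences were 0.36, 0.45 and 0.35, that is 1.29-fold, 1.36-fold and 1.27-fold higher, and they were the highest of any bright member in each comparison. Both of its other probe sets were also higher on the 3 transformed arrays, by 0.10, 0.25 and 0.26 for the brighter and 0.28, 0.35 and 0.32 for the dimmer. Because the 3 values share the non-transformed array, they are not 3 separate observations. With 1 array per culture, a low non-transformed array and higher levels in the 3 transformed cultures cannot be told apart.

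Rps4l, an autosomal relative of the X-linked Rps4x, was lowest in myr-Akt cells. Its signal was 4344, 1802 and 3454 in H-RasV12, myr-Akt and c-Myc-labelled cells, against 4240 in non-transformed cells, a log2 difference of 0.03, -1.23 and -0.30. Rps4x itself had 24009, 23564 and 22824, against 22312 in non-transformed cells, with log2 differences of 0.11, 0.08 and 0.03. Rps4l is measured by 1 probe set. Rpl39l and Rpl3l, copies known for expression in testis and in muscle, were below the floor on every array. Rpl22l1, a copy of Rpl22 that the symbol rule does not take, had 8685, 12203 and 14908, against 10153 in non-transformed cells (-0.23, 0.27 and 0.55), beside 27346, 26875 and 25601, against 25393, for Rpl22 (0.11, 0.08 and 0.01). Rpl22l1 was thus lowest in H-RasV12 and highest in c-Myc-labelled cells. The next probe set of Rpl22 had 19589, 20824 and 17060, against 17023 (0.20, 0.29 and 0.00), and its dimmest one was lower in myr-Akt cells (604.2, against 1214). Rpl7l1 had 2343, 2977 and 2917, against 1992 in non-transformed cells (0.23, 0.58 and 0.55), and Fau, which encodes Rps30 as a fusion with a ubiquitin-like protein, had 20911, 20182 and 19012, against 18855 (0.15, 0.10 and 0.01).

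All 6 members that were 1.5-fold different from non-transformed cells in any comparison were dim. Rpl14, of the large subunit, had 946.7, 1534 and 1814 in H-RasV12, myr-Akt and c-Myc-labelled cells, against 678.7 in non-transformed cells, and was higher on every transformed array (log2 differences 0.48, 1.18 and 1.42). Rpl12, which with Rplp0 forms the base of the stalk, had 1923, 1480 and 1422, against 861.9 (1.16, 0.78 and 0.72). Rps25, needed for initiation at several viral internal entry sites, had 3924, 5083 and 3772, against 2730 (0.52, 0.90 and 0.47). These 3 genes were lowest in non-transformed cells. Rps27 had 340.1, 419.2 and 363.7, against 567.0 in non-transformed cells (-0.74, -0.44 and -0.64), and Rpl37 had 1275, 1803 and 1767, against 2004 (-0.65, -0.15 and -0.18), so both were highest in non-transformed cells. Rps6, which S6 kinases phosphorylate downstream of mTORC1, had 1956, 2113 and 2308, against 1604, and did not reach 1.5-fold (0.29, 0.40 and 0.52).

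For 8 of the 9 dim members, the array also carries a bright probe set that lists the gene together with other symbols. It differed less in size than the dim probe set in each comparison, except for Rpl27a in myr-Akt cells, where both differed by 0.11. The bright probe set listing Rpl14 had 16358, 19578 and 19625 in H-RasV12, myr-Akt and c-Myc-labelled cells, against 15655 in non-transformed cells (0.06, 0.32 and 0.33, against 0.48, 1.18 and 1.42 for the dim one). The one listing Rpl12 had 26507, 26799 and 24166, against 25764 (0.04, 0.06 and -0.09), and the one listing Rps27 had 17131, 18791 and 18055, against 16464 (0.06, 0.19 and 0.13), opposite in sign to the dim probe set. Over the 8 genes, 3 dim probe sets were 1.5-fold different in each comparison and 0 bright ones were. Rps16 was below the floor by its single-gene probe set, with a signal of at most 4.3, whereas a probe set listing it with other symbols had 29044, 28540 and 28902, against 28771 in non-transformed cells. Such a probe set can also read copies and pseudogenes, so no gene value was taken from it. Of the 34 bright members, 30 have identifiers ending in _a_at, _s_at or _x_at, the array's marks for probes shared between transcripts, against 1 of the 9 dim members.

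**Figure D2:**
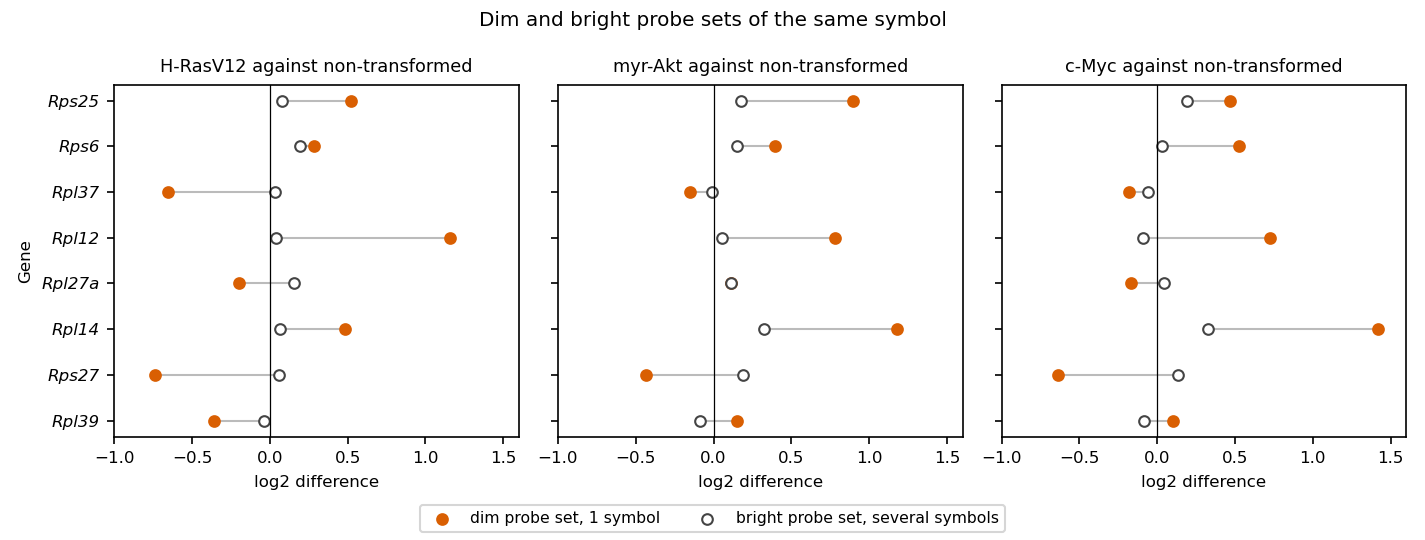
Log2 difference from non-transformed cells for the 8 dim ribosomal protein genes that also have a bright probe set, 1 panel per transformed culture, with filled symbols for the dim single-gene probe set and open symbols for the bright probe set listing several symbols. Open symbols lie between -0.09 and 0.33, while filled symbols lie between -0.74 and 1.42.

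Probe sets of 1 gene also differed from each other. Rps10, a small-subunit protein, had 26081, 24328 and 24075 in H-RasV12, myr-Akt and c-Myc-labelled cells, against 25313 in non-transformed cells, by its brightest probe set. A dimmer Rps10 probe set had 4171, 9300 and 12249, against 3149 (0.41, 1.56 and 1.96). Rpl41, the smallest ribosomal protein, differed by 0.15, 0.13 and -0.04 by its brightest probe set and by 1.38, 1.76 and 1.19 by another with a mean signal of 826.4. A dimmer probe set of Rps3 was higher in myr-Akt and c-Myc-labelled cells (0.91 and 1.33), and the dimmest one of Rpl22 was lower in myr-Akt cells (-1.01). Counted over all measured probe sets that list a ribosomal protein gene, alone or with other symbols, 0 of 140 bright and 29 of 51 dim ones were 1.5-fold different from non-transformed cells in at least 1 comparison. This count was not made over all genes. In the single comparisons, 8.87%, 16.3% and 15.3% of all genes were 1.5-fold higher and 13.7%, 22.5% and 20.4% were 1.5-fold lower. The count of dim probe sets is thus not read as particular to ribosomal protein genes. Which transcripts the dim probe sets read was not tested.

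**Figure D3:**
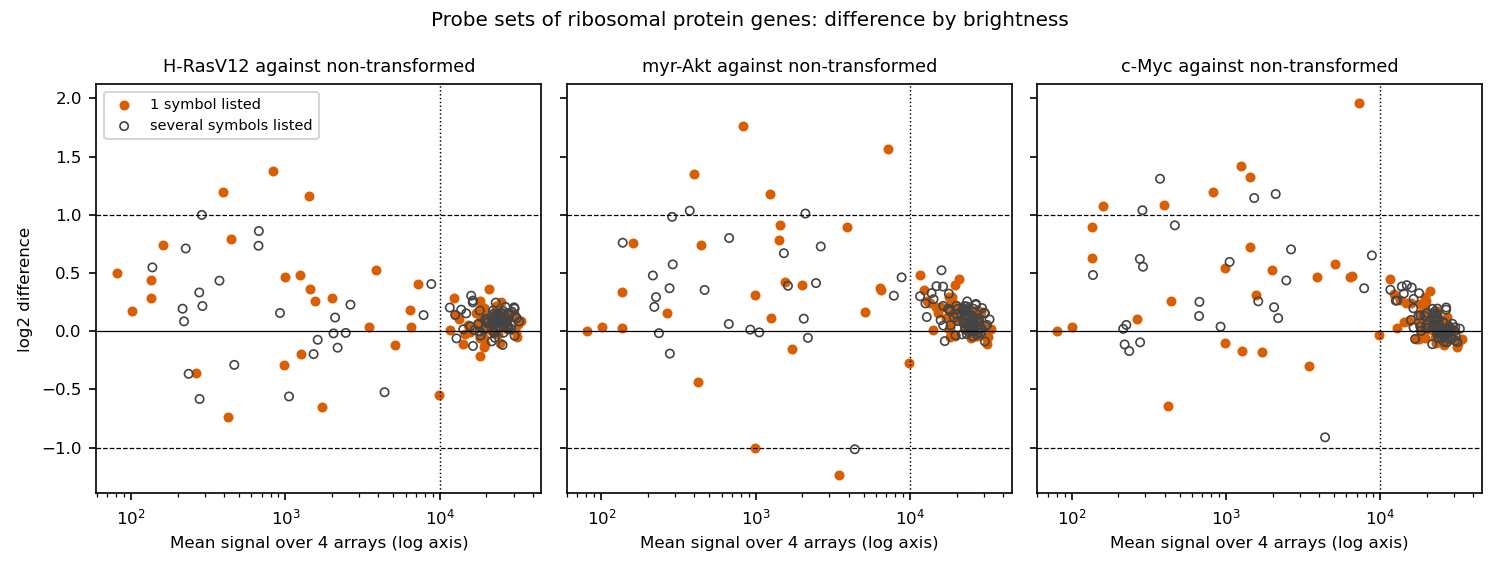
Log2 difference from non-transformed cells against mean signal over 4 arrays (log axis) for every measured probe set of a ribosomal protein gene, 1 panel per transformed culture, with filled symbols for 1 listed symbol and open ones for several. Probe sets right of the dotted line at 10000 stay within 1.5-fold, and the dashed lines mark 2-fold.

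Between transformed cultures, the median log2 difference over 43 members was 0.06 for myr-Akt against c-Myc, -0.02 for H-RasV12 against myr-Akt and 0.06 for H-RasV12 against c-Myc. Between myr-Akt and c-Myc-labelled cells, Rps4l was the 1 member at least 1.5-fold lower (-0.94, against 6.19% of all genes) and 0 of 43 were 1.5-fold higher (against 4.53%). At 2-fold, 0 of 43 were higher or lower (against 1.53% and 2.01% of all genes). Between H-RasV12 and myr-Akt cells, Rps4l was at least 1.5-fold higher (1 of 43, against 17.0% of all genes) and Rpl14 at least 1.5-fold lower (1 of 43, against 12.1%). Rps4l was also 2-fold higher (1.27, against 9.35% of all genes), and 0 of 43 were 2-fold lower (against 4.38%). Rpl14 was also the 1 member at least 1.5-fold lower in H-RasV12 than in c-Myc-labelled cells (-0.94, against 12.5% of all genes), with 0 of 43 higher (against 15.9%). At 2-fold, 0 of 43 were higher or lower (against 8.76% and 5.11% of all genes). Of the bright members, Rps24 was highest in H-RasV12 relative to c-Myc-labelled cells (0.25) and Rpl11 lowest (-0.26).

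Genes that handle ribosomal proteins before they enter the ribosome were mostly higher in the transformed cultures. By any amount, 16, 15 and 15 of the 18 measured were higher, against 5363, 4985 and 5100 of all 10679 genes. Of 19 listed assembly chaperones and importins, 18 were measured, with medians of 0.37, 0.64 and 0.64 in H-RasV12, myr-Akt and c-Myc-labelled cells relative to non-transformed cells. Of these, 3, 13 and 11 were at least 1.5-fold higher (16.7%, 72.2% and 61.1%, against 8.87%, 16.3% and 15.3% of all genes) and 0 were 1.5-fold lower (against 13.7%, 22.5% and 20.4%). Ltv1, a factor of small-subunit maturation, had 1847, 3551 and 3662 in the transformed cultures, against 1527 in non-transformed cells (0.28, 1.22 and 1.26). Heatr3, which brings Rpl5 to the nucleus, had 730.3, 1047 and 1104, against 512.6 (0.51, 1.03 and 1.11), and Grwd1, a chaperone of Rpl3, had 1734, 1948 and 1768, against 994.0 (0.80, 0.97 and 0.83). Of 12 measured enzymes that modify ribosomal proteins, 1, 4 and 4 were at least 1.5-fold higher (8.33%, 33.3% and 33.3%, against the same shares of all genes), so that the count in H-RasV12 cells lay near that of all genes. Riox1, which hydroxylates Rpl8, was past 1.5-fold in all 3 (810.5, 1094 and 1312, against 530.4 in non-transformed cells). Mettl18, a histidine methyltransferase of Rpl3, had 206.1, 374.8 and 417.5, against 163.1 (0.34, 1.20 and 1.36). For scale, the interquartile width of the log2 differences was 0.59, 0.90 and 0.83 over all genes measured, and 0.32, 0.51 and 0.50 over the 281 other bright genes.

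**Figure D4:**
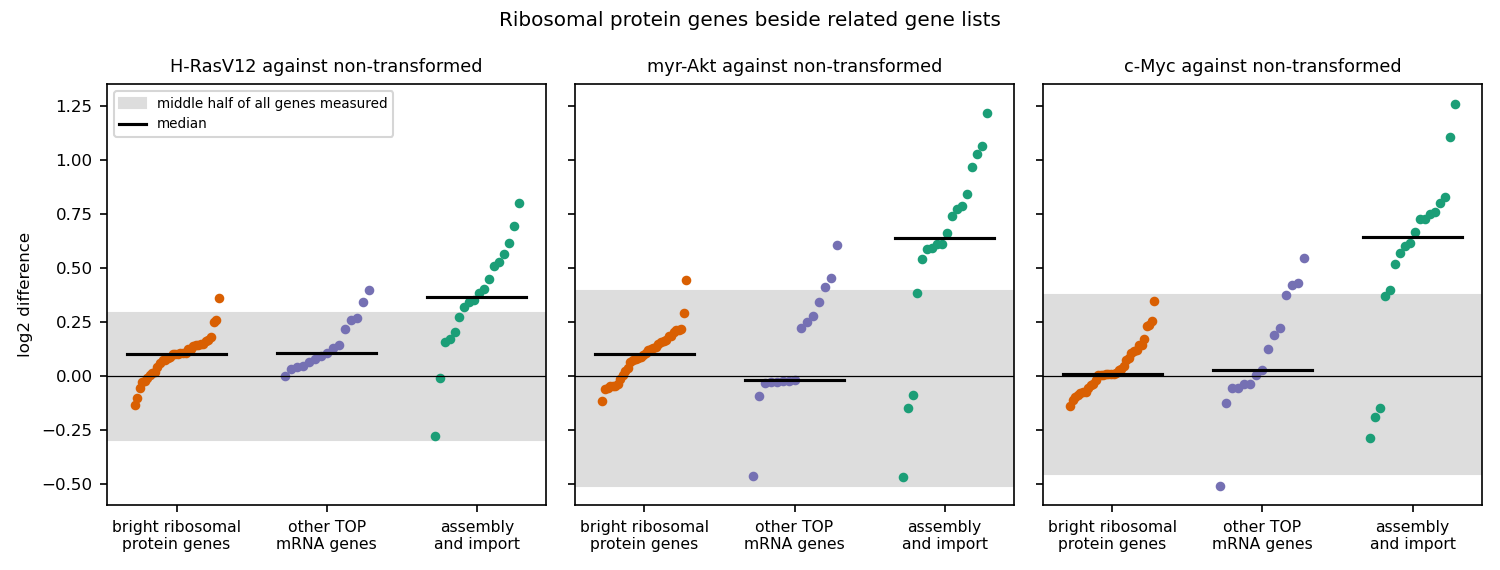
Log2 difference from non-transformed cells for the 34 bright ribosomal protein genes, 15 other TOP mRNA genes and 18 genes of ribosomal protein assembly and import, 1 symbol per gene and 1 panel per transformed culture, with the median as a line and the interquartile range of all genes in grey. The medians are 0.10, 0.10 and 0.01 for the ribosomal protein genes and 0.37, 0.64 and 0.64 for assembly and import.

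Other mRNAs with the TOP motif, among them elongation factors, were measured for 15 of 16 listed genes. They had medians of 0.11, -0.02 and 0.03 in H-RasV12, myr-Akt and c-Myc-labelled cells. Of them, 0, 1 and 0 were at least 1.5-fold higher (against 8.87%, 16.3% and 15.3% of all genes). None was 1.5-fold lower (against 13.7%, 22.5% and 20.4% of all genes). Eef1a1, the main carrier of aminoacyl-tRNA, had 32929, 29992 and 29390, against 30527 in non-transformed cells, whereas Npm1, a nucleolar chaperone, had 21612, 24960 and 23923, against 16365 (0.40, 0.61 and 0.55). The 13 measured genes of mTORC1 signalling to TOP mRNAs had medians of 0.10, -0.08 and -0.03, and 6, 8 and 7 of them were lower than in non-transformed cells. Over all 10679 genes measured, 5101, 5459 and 5320 were lower, so these counts do not set the list apart. Deptor, an mTOR inhibitor, had 298.8, 157.3 and 151.3, against 170.3 (0.81, -0.11 and -0.17), and Tsc2 had 578.6, 494.6 and 425.5, against 623.3 (-0.11, -0.33 and -0.55). Larp1 had 3650, 4130 and 4494, against 2694 (0.44, 0.62 and 0.74), and the translation repressor Eif4ebp2 had 1484, 2293 and 2686, against 1382 (0.10, 0.73 and 0.96). The 8 measured regulators of ribosomal protein gene transcription had medians of 0.16, 0.47 and 0.52, with Myc, given above, the lowest, and Tbpl1, a relative of the TATA-binding protein, had 1829, 3198 and 2760, against 1664 (0.14, 0.94 and 0.73). In the Mdm2 pathway, to which Rpl11 belongs, Cdkn2a, the locus of the Mdm2 inhibitor Arf, had 5037, 2381 and 3231, against 5697 (-0.18, -1.26 and -0.82), and Mdm2 had 1388, 1426 and 986.4, against 896.4 (0.63, 0.67 and 0.14). Cdkn1a had the largest difference of this list, with 585.5, 205.0 and 60.3, against 455.4 (0.36, -1.15 and -2.19). Its c-Myc-labelled signal was below the floor, so the floor stood in for it. Of the 5 measured genes, 3 were higher and 2 lower than in non-transformed cells in each comparison, which does not set the list apart.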

How the data were processed

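RNA from 4 cultures was measured on 4 single-colour Affymetrix mouse arrays, 1 per group, with cRNA made from 1 µg of total RNA per the labels' protocols. Per the submitters' processing notes, the authors used MAS5, and the deposited table holds 1 linear intensity per probe set and array. The sources used here give neither its version nor detection calls. Each array's mean, trimmed by 2.0% at both ends, was 500.003. The 4 value columns were mapped to samples by their labels.

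Arrays were brought to that common trimmed mean, signals under 20% of it (100.0006) were set to this floor, and log2 was taken. Of 45101 probe sets, 64 controls were left out, and the platform annotation gave 34945 others 1 symbol, 932 several and 9160 none. Genes were named only from probe sets with 1 symbol, and all 46 members matched the RefSeq gene table by Entrez identifier (40 are in its promoter table). A gene was counted at 1.5-fold or 2-fold among the 10679 genes above the floor on at least 1 array. With 1 array per group there was no test, and precision is limited by that number. No scan date or batch is given, so batch and group cannot be told apart.

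The members and gene lists were chosen with earlier results of these data known. Genes were named by a written rule. It took members past 2-fold, the 4 highest and 4 lowest per comparison, the 5 brightest and 5 dimmest, members with a listed role or paralogue, and up to 3 genes per related list; other members and probe sets named for their signals were chosen after these were seen. Python 3.11.15, numpy 2.4.6, pandas 2.3.3, R 4.3.3 and limma 3.58.1 were used. Simulated data were used to test how differences are counted. Alternatives covered floor, scaling and choice of probe set.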

Additional observations from a re-analysis of the deposited data

How the results depend on the processing

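The results on the members were recomputed under 12 alternatives, 2 of them added after seeing the data, giving 244 comparisons with the reported value. Of these 187 stayed within the tolerance (0.1 for a median log2 difference, 10% for a share, 1.5 times for a count) and 56 moved. A change of sign was counted only where the reported median was at least 0.1 in size, and 1 was found. Smaller medians that changed sign within the tolerance count as stayed, such as c-Myc against non-transformed (0.0118 reported, -0.0366 under cyclic loess). The tolerance is about as large as the largest medians. A fall from 0.1037 to 0.0295 for H-RasV12 under quantile normalization thus counts as stayed. Under cyclic loess the median was 0.00 (0.0018) for H-RasV12 and -0.02 (-0.0161) for myr-Akt, where the reported value was 0.11. The count of members at least 1.5-fold lower in c-Myc-labelled cells was 0 when a pseudocount replaced the floor and 0 under quantile normalization. With the mean over probe sets, 2 members were 1.5-fold higher in H-RasV12 cells, and the shares of summed signal were 4.82%, 4.89% and 4.76% in H-RasV12, myr-Akt and c-Myc-labelled cells, against 4.49% in non-transformed cells. With the next brightest probe set (19 members), 0 members were 1.5-fold higher, 1.5-fold lower or 2-fold higher in H-RasV12 cells, and in myr-Akt cells 1 was 1.5-fold higher with 0 in the other counts. In c-Myc-labelled cells 1 was then 1.5-fold higher and 0 were 1.5-fold lower, and the shares were 5.32%, 5.53% and 5.29%, against 5.04%. Without probe sets whose identifiers end in _s_at, _x_at or _a_at (22 members), the medians were 0.24 for H-RasV12 and 0.24 for myr-Akt. In that setting 4 members were 1.5-fold higher, 1 was 1.5-fold lower and 2 were 2-fold higher in H-RasV12 cells, 7 were 1.5-fold and 2 were 2-fold higher in myr-Akt cells, and 6 were 1.5-fold and 4 were 2-fold higher in c-Myc-labelled cells, with shares of 1.22%, 1.22% and 1.17%, against 1.11%. The added alternative that takes the brightest probe set listing a symbol, alone or with others (44 members), gave 0 members 1.5-fold higher, 1.5-fold lower or 2-fold higher in H-RasV12 and c-Myc-labelled cells and 0 members 1.5-fold or 2-fold higher in myr-Akt cells, with shares of 5.22%, 5.25% and 5.12%, against 4.93%. The other added alternative, which leaves out members with a mean signal under 10000, brought every count to 0. Where probe sets or members were replaced or left out, the counts are over those genes; the cause of the changes under cyclic loess, the pseudocount and quantile normalization was not tested. No paired analysis was possible because each group holds 1 array, and for the same reason no replicate could be left out. Probe sets near the floor have the least signal over background, and no spread between cultures bounds any value.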
